A study of Mus musculus with 16 samples.

Results

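The genes described are 9 transcription factors that specify or maintain the macrophage state: Spi1 (which encodes PU.1), Cebpa, Cebpb, Cebpd, Maf, Runx1, Mitf, Tfeb and Mef2c. They were chosen by name, and all 9 had a row among the 9614 genes of the merged RNA-seq table. RNA was measured in bone-marrow-derived macrophages (BMDM) of male C57BL/6 mice that were 8 weeks old. WT mice carried LysM-Cre with NELF-B wt/wt and NELF-B KO mice carried LysM-Cre with NELF-B fl/fl, so both genotypes express the Cre recombinase, which is driven from the myeloid lysozyme M locus. BMDM were left untreated (2 mice per genotype), were given 10 ng/ml LPS for 1 hr (3 mice per genotype) or were given 10 ng/ml LPS with 100 nM Dex for 1 hr (3 mice per genotype). LPS is a bacterial cell wall component that activates macrophages, and Dex (dexamethasone) is a synthetic glucocorticoid that activates the glucocorticoid receptor, GR. NELF-B is a subunit of the negative elongation factor, which holds RNA polymerase II near the start of genes. The 16 libraries come from 6 mice, called WT A, B and C and KO A, B and C here, and mice C have no untreated library in the table. Levels are the deposited log2 CPM (CPM, read counts scaled to the size of the library), and a difference of 1 on this scale is a doubling of the scaled count.

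PU.1 and the C/EBP proteins bind together at enhancers across the macrophage genome, and the combination sets the genes that a myeloid cell can use. C/EBPα is the family member of steady-state myeloid differentiation, whereas C/EBPβ and C/EBPδ are known as acute-phase factors that inflammatory signals induce. c-MAF is associated with tissue-resident and anti-inflammatory macrophages, RUNX1 with the opening of myeloid enhancers, MITF and TFEB with lysosome and autophagy genes, and MEF2C with the choice between myeloid fates.

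Recovered depth, the sum of reads over the 9614 genes in the table only, was 25000000 to 49700000 reads per library. Nelfb, the deleted gene, measured 48.0 to 74.1 CPM in the 8 WT libraries and 9.64 to 20.8 CPM in the 8 KO libraries, so every KO library lay below every WT library. The log2 difference was -2.11 (SE 0.38) in untreated cells, -2.02 (SE 0.23) under LPS and -2.0 (SE 0.23) under LPS + Dex. In limma on the libraries of each treatment, the adjusted p-values were 0.889, 0.105 and 0.0889, so the deleted gene itself did not pass these comparisons. With mouse as a random effect over all 16 libraries it passed in each treatment (adjusted p = 0.00459, 0.00144 and 0.00185 in limma). All 9 macrophage markers listed for the check were in the table, with a summed level of 9500 to 15300 CPM. Lyz2, the gene of the lysozyme M locus, measured 19.7 to 39.3 CPM in the WT and 41.7 to 80.3 CPM in the KO. Of the markers of other cells, S100a8 (neutrophils, 1 of 9 listed) reached 41.5 CPM, Cd79b (B cells, 1 of 6) 39.7 CPM, Ccr7 (dendritic cells, 1 of 6) 10.0 CPM and 4 of 5 stromal genes together 145.0 CPM. No listed T cell, mast cell or erythroid marker had a row in the table. The untreated library of WT mouse A stood apart from the rest. Its correlation with the other 15 libraries over all genes was 0.83 to 0.909, against 0.924 to 0.993 among those 15. Results that rest on it are therefore given with and without it.

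The promoters of Cebpa, Cebpb and Runx1 are shown because the LPS results turn on these genes. Each run holds 250 bases before and 50 bases after an annotated start, 5′ to 3′ on the strand of the gene, on GRCm38.p6, and capitals mark a match to a searched motif on either strand. The Cebpa window lies at chr7:35119043-35119342 (+), the Cebpb window at chr2:167688665-167688964 (+), and Runx1 has a distal window at chr16:92826025-92826324 (−) and a proximal one at chr16:92697280-92697579 (−).
Cebpa: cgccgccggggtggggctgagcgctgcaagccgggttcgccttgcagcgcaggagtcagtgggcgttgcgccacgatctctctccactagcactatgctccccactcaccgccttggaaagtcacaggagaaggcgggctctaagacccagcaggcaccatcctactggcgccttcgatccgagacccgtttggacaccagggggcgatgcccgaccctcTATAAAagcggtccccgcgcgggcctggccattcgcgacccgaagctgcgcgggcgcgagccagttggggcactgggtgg
Cebpb: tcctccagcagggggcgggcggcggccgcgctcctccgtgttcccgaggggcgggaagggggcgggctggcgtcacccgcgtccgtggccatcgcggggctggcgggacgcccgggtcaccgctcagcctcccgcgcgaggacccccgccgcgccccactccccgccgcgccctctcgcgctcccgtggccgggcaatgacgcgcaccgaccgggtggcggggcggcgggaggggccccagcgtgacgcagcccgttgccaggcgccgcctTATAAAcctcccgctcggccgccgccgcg
Runx1, distal start: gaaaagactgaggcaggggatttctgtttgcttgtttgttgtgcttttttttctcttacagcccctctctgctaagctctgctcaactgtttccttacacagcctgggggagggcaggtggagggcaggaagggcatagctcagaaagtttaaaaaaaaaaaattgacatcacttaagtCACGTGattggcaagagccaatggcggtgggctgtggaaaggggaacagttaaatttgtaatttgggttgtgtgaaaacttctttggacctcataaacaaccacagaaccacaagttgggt
Runx1, proximal start: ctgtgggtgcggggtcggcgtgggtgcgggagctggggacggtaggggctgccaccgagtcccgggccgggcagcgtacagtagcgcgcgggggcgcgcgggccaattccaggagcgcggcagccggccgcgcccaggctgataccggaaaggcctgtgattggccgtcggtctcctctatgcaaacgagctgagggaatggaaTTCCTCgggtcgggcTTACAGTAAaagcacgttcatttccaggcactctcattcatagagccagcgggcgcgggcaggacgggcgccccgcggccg
The capitals are the TATA box TATAAA in Cebpa and Cebpb, the E-box CACGTG in the distal Runx1 window, and the PU box GAGGAA (on the opposite strand) and a C/EBP element in the proximal Runx1 window. TATAAA occurs in 13.6% of all 32851 windows of this length and in 6.81% of the 9476 windows of genes in the table. In Cebpa it starts 30 bases before the annotated start, and in Cebpb 21 bases after it. CACGTG occurs in 7.15%, GAGGAA in 28.3% and the C/EBP element in 6.92% of all windows. The other motifs searched were the NF-kB element (kappaB), the cyclic AMP response element TGACGTCA and the hexamer TGTTCT of the GR response element, and these letters do not occur in the 4 windows shown. RefSeq windows (13) matched 6 of the 9 genes. Those of Mitf hold 1 kappaB match, which 4.51% of all windows have, 1 TGACGTCA match, which 1.79% have, and 1 TGTTCT match, which 19.0% have. Mef2c held TGTTCT in 2 of its windows, GAGGAA in 2 and TATAAA in 2. Such matches are descriptions of the letters and show no binding.

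To compare levels between genes, CPM were divided by the merged exon length of each gene in GENCODE vM21. Spi1 was the most abundant factor, at 165.0 ± 26.4 CPM per kb (SD, n = 16 libraries), and Mef2c the least, at 2.06 ± 0.426 CPM per kb. Cebpb followed Spi1 with 84.6 ± 43.3 CPM per kb, then Cebpa with 35.6 ± 10.2 and Maf with 34.8 ± 10.9. Mitf (12.5 ± 1.6), Cebpd (9.03 ± 6.19), Runx1 (7.27 ± 1.22) and Tfeb (5.87 ± 1.58 CPM per kb) were lower. Neighbours in this order overlapped between libraries, except that Maf exceeded Mitf and Tfeb exceeded Mef2c in every library. The spread differed between the genes. Cebpb covered 3.31 log2 CPM between its lowest and highest library and Cebpd 3.42, whereas the other 7 covered 0.83 (Mitf) to 1.41 or 1.42 (Cebpa and Tfeb).

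**Figure D1:**
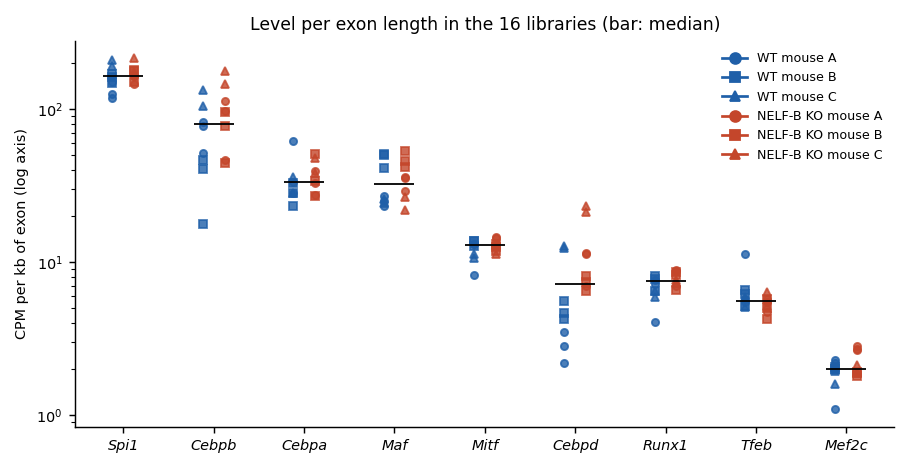
Level of each gene in the 16 libraries as CPM per kb of merged exon, on a log axis; points are libraries by genotype and mouse, and bars are medians. Spi1 lies at 118.0 to 215.0 CPM per kb and Mef2c at 1.09 to 2.81, and Cebpb and Cebpd have the widest ranges.

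In bulk RNA, fewer cells that express a gene and less RNA per cell cannot be told apart.

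The positions and exon structures of the genes also bear on the counts. Cebpb (chr2:167688915-167690418, +) is a single exon of 1504 bases, and 312 of them are shared with an exon of Tmem189 on the opposite strand. Cebpd (chr16:15887286-15891031, +) shares 562 exon bases with Spidr, also on the opposite strand. The use of strand in counting is not given in the sources used here, so reads in these stretches cannot be assigned with certainty. Tmem189 measured 12.5 to 30.5 CPM where Cebpb measured 26.8 to 266.0, and Spidr 18.3 to 26.5 CPM where Cebpd measured 8.12 to 87.1. Neither neighbour passed the test for LPS or Dex in either genotype (smallest adjusted p in limma 0.0658). Annotated antisense genes without a row in the table overlap exons of Cebpa (Gm45091, 51 bases), Maf (Gm15655, 401 bases) and Runx1 (Gm26626, 106 bases). The positions of the remaining genes are Spi1 (chr2:91082390-91115756, +), Cebpa (chr7:35119293-35121928, +), Maf (chr8:115682942-115707794, −), Runx1 (chr16:92601466-92826149, −), Mitf (chr6:97807052-98021349, +), Tfeb (chr17:47737030-47792419, +) and Mef2c (chr13:83504034-83667080, +).

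The first comparison asked how 1 hr of LPS changed each factor within the same mouse. Cebpa fell in both genotypes and Runx1 rose in the WT. Maf fell in the KO. In the fit of all 16 libraries with limma, 2 of the 9 genes passed an adjusted p of 0.05 in the WT (13.8% of all genes passed) and 2 of 9 in the KO (7.32% of all genes). Without the untreated library of WT mouse A, 4 of 9 passed in each genotype (14.9% of all genes in the WT and 27.9% in the KO), and these were Cebpa and Maf, which fell, and Cebpb and Runx1, which rose. Over the 4 mice with both libraries, Cebpa and Maf were lower with LPS in 4 of 4, against 18.7% of all genes, and Runx1, Mitf and Mef2c were higher in 4 of 4, against 21.9% of all genes. The 5 of 9 genes with a single sign compare with 40.6% of all genes.

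Cebpa, the factor of steady-state myeloid differentiation, measured 7.35 and 6.44 log2 CPM in untreated BMDM of mice A and B of the WT, and 6.69 and 7.06 in those of mice A and B of the KO. With LPS it measured 6.21, 5.94 and 6.21 in mice A, B and C of the WT, and 6.18, 6.15 and 6.66 in mice A, B and C of the KO. Every untreated library of the WT was above every LPS library of the WT, and the same held in the KO, narrowly (6.69 against 6.66). The share of all genes with separate untreated and LPS groups was not counted. The change was -0.83 (SE 0.15, adjusted p = 0.00968 in limma) in the WT, a 1.78-fold lower level, and -0.71 (SE 0.15, adjusted p = 0.0248) in the KO, 1.64-fold lower. Within mice it ran from -1.13 (WT mouse A) to -0.50 (WT mouse B). Without the untreated library of WT mouse A the WT change was -0.51 (SE 0.10, adjusted p = 0.00242). The KO call was lost when any untreated or LPS library of the KO was left out (adjusted p = 0.0589 to 0.43), and the WT call when the LPS library of WT mouse A was left out (adjusted p = 0.08).

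Cebpb, the inflammation-induced family member, was the gene whose WT change moved most when the library that stands apart was left out. It measured 6.87 log2 CPM in the untreated library of WT mouse A but 4.74 in that of WT mouse B, and 6.13 and 6.07 in those of mice A and B of the KO. With LPS it reached 6.29, 5.92 and 7.31 in mice A, B and C of the WT and 7.19, 6.86 and 7.78 in mice A, B and C of the KO. Cebpb was thus higher with LPS by 1.18, 1.06 and 0.80 in WT mouse B, KO mouse A and KO mouse B, and changed by -0.58 in WT mouse A. With all libraries, the change was 0.32 (SE 0.31, adjusted p = 0.408) in the WT and 0.93 (SE 0.31, adjusted p = 0.149) in the KO. Without that library it was 1.09 (SE 0.11, adjusted p = 1.25e-05) in the WT, which then rests on WT mouse B alone, and 0.93 (SE 0.08, adjusted p = 1.95e-06) in the KO. Without the untreated library of WT mouse B instead, the WT change was -0.45 (adjusted p = 0.00199) in a fit that called 80.8% of all genes. S100a8 was among the 3 genes most like Cebpb, and is the 1 of 9 listed neutrophil markers with a row in the table. It measured 27.1 CPM in the untreated library of WT mouse A and 5.54 to 18.3 CPM in the other 3 untreated libraries. A single marker does not give the share of neutrophils, and the part of S100a8 in the result was not tested.

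Cebpd, the second acute-phase member, showed no called LPS change. Its change was 0.39 (SE 0.22, adjusted p = 0.169) in the WT and 0.29 (SE 0.22, adjusted p = 0.755) in the KO, and within mice it ran from -0.13 (KO mouse B) to 0.69 (KO mouse A). Mice given LPS differed from each other by more than that, as described with the genotypes.

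Runx1, which encodes a core-binding factor of blood development, measured 5.61 and 6.28 log2 CPM in untreated mice A and B of the WT and 6.40 and 6.29 in untreated mice A and B of the KO. With LPS it measured 6.52, 6.61 and 6.29 in mice A, B and C of the WT and 6.74, 6.63 and 6.52 in mice A, B and C of the KO. The difference was 0.33, 0.34 and 0.34 in WT mouse B, KO mouse A and KO mouse B, and 0.90 in WT mouse A. The change in the WT was 0.63 (SE 0.13, adjusted p = 0.0137) with all libraries and 0.34 (SE 0.06, adjusted p = 0.000974) without the untreated library of WT mouse A. In the KO it was 0.35, with an adjusted p of 0.184 (SE 0.13) and 4.12e-05 (SE 0.04) in the same fits. The WT call was lost when the LPS library of WT mouse A was left out (adjusted p = 0.107).

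Maf measured 7.69 and 8.70 log2 CPM in untreated mice A and B of the WT and 8.21 and 8.78 in untreated mice A and B of the KO. With LPS it measured 7.59, 8.40 and 7.64 in mice A, B and C of the WT and 7.92, 8.42 and 7.49 in mice A, B and C of the KO. The groups overlapped, while every mouse with both libraries had less Maf with LPS, by 0.10 to 0.36. The change was -0.17 (SE 0.08, adjusted p = 0.13) in the WT and -0.34 (SE 0.08, adjusted p = 0.042) in the KO. Without the untreated library of WT mouse A it was -0.24 (SE 0.07, adjusted p = 0.0462) and -0.34 (SE 0.06, adjusted p = 0.000441). The KO call was lost when any KO library of this comparison was left out (adjusted p = 0.123 to 0.555).

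Spi1, Mitf, Tfeb and Mef2c passed the test in neither genotype. Spi1 changed by -0.10 (SE 0.08, adjusted p = 0.348) in the WT and 0.00 (SE 0.08, adjusted p = 1) in the KO, and the sign of both turned under other settings. For Mitf, Tfeb and Mef2c, WT mouse A set the WT values, with 0.68, -0.99 and 1.07 in that mouse and 0.13, -0.08 and 0.04 in WT mouse B. In the KO these genes changed by 0.07 to 0.15 (Mitf and Mef2c) or by 0.06 and -0.20 (Tfeb). Without the untreated library of WT mouse A, their WT changes were 0.11 (SE 0.07, adjusted p = 0.363), -0.12 (SE 0.09, adjusted p = 0.486) and 0.08 (SE 0.09, adjusted p = 0.638). Removing the untreated library of WT mouse B instead left WT mouse A alone, and Mitf (0.67), Tfeb (-0.93), Mef2c (1.10) and Spi1 (-0.24) were then called, as were 80.8% of all genes.

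**Figure D2:**
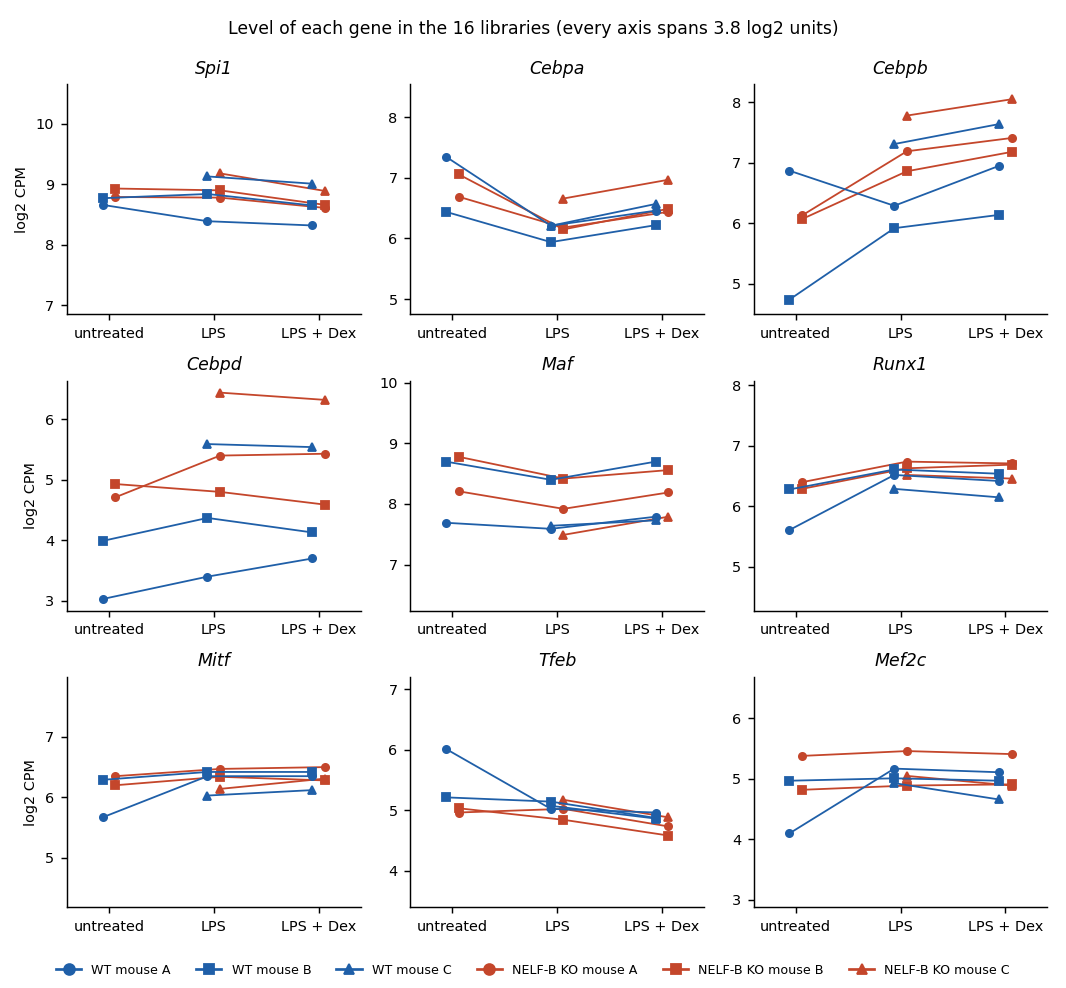
log2 CPM of each gene in untreated, LPS and LPS + Dex BMDM; lines join the libraries of a mouse, colours are genotypes and symbols are mice, and every axis spans the same number of log2 units. Cebpa falls with LPS along each line, Cebpb rises except in WT mouse A, and the mice stay apart for Cebpd.

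The next comparison set LPS + Dex against LPS in the same mouse and asked what Dex adds to LPS. With all 16 libraries, 0 of 9 genes passed in the WT (2.19% of all genes passed) and 0 of 9 in the KO (2.57% of all genes) in limma. At an unadjusted p under 0.05, 1 of 9 passed in the WT and 3 of 9 in the KO (6.81% and 7.73% of all genes), and voom on recovered reads also called 0 of 9. With only the 12 LPS and LPS + Dex libraries, a fit added after the data were seen, 5 of 9 passed in each genotype (10.4% of all genes in the WT and 14.1% in the KO). Cebpa, Cebpb and Maf rose with Dex and Spi1 and Tfeb fell, in the WT as in the KO. Each of these 5 genes moved the same way in 6 of 6 mice, against 9.16% of all genes higher and 10.4% lower in every mouse (19.6% together). The estimates of these genes were the same in both fits to 2 decimals, while the standard errors differed. Over both genotypes, LPS called 3 of 9 genes (17.3% of all genes), or 4 of 9 (30.8%) without the untreated library of WT mouse A, and Dex called 1 of 9, Maf (4.85% of all genes). For Dex, 5 of 9 were then called in the 12 libraries (17.1%) and 5 of 9 without the untreated library of WT mouse A (16.1%). Within genotypes, leaving out the latter library gave 4 of 9 in the WT, without Tfeb (9.62% of all genes), and 5 of 9 in the KO (13.0%).

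Cebpa with LPS + Dex measured 6.46, 6.22 and 6.57 log2 CPM in mice A, B and C of the WT and 6.44, 6.49 and 6.97 in mice A, B and C of the KO. Set against the LPS values above, each mouse had more Cebpa with Dex, by 0.25 to 0.36. In the WT the highest LPS library (6.21) lay just below the lowest LPS + Dex library (6.22), and the KO groups overlapped. The share of all genes with separate LPS and LPS + Dex groups was not counted. In the 12 libraries the change was 0.30 (SE 0.04, adjusted p = 9.57e-05) in the WT and 0.31 (SE 0.04, adjusted p = 6.13e-05) in the KO, 1.23-fold and 1.24-fold. In all 16 libraries the standard error was 0.13 in each genotype, with an adjusted p of 0.762 in the WT and 0.616 in the KO.

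Cebpb with LPS + Dex measured 6.95, 6.14 and 7.64 log2 CPM in mice A, B and C of the WT and 7.41, 7.18 and 8.05 in mice A, B and C of the KO. All 6 mice had more Cebpb than with LPS alone, by 0.21 to 0.66, while mice of the same group and treatment differed by 0.88 to 1.5. The change was 0.40 (SE 0.06, adjusted p = 0.000753) in the WT and 0.27 (SE 0.06, adjusted p = 0.0115) in the KO in the 12 libraries, against an SE of 0.26 and an adjusted p of 1 in both genotypes with all 16. S100a8, the only listed neutrophil marker in the table, was also higher with Dex in 6 of 6 mice. In KO mouse B, for example, it measured 13.9 CPM with LPS and 20.6 CPM with LPS + Dex, and its part in the Cebpb change was not tested. The LPS and Dex comparisons use the same LPS libraries, so their values are not independent.

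Maf with LPS + Dex measured 7.79, 8.70 and 7.73 log2 CPM in mice A, B and C of the WT and 8.19, 8.56 and 7.79 in mice A, B and C of the KO. It was higher than with LPS alone by 0.08 to 0.30. The change was 0.20 (SE 0.04, adjusted p = 0.0102) in the WT and 0.24 (SE 0.04, adjusted p = 0.00212) in the KO in the 12 libraries, and 0.438 and 0.203 were the adjusted p-values with all 16.

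Spi1, the gene of the lineage-determining factor PU.1, measured 8.39, 8.84 and 9.13 log2 CPM with LPS in mice A, B and C of the WT and 8.32, 8.65 and 9.01 with LPS + Dex. In mice A, B and C of the KO it measured 8.78, 8.90 and 9.18 with LPS and 8.61, 8.66 and 8.89 with LPS + Dex. Every mouse had less Spi1 with Dex, by 0.07 to 0.29. The change was -0.13 (SE 0.04, adjusted p = 0.0305) in the WT and -0.24 (SE 0.04, adjusted p = 0.000432) in the KO in the 12 libraries, that is 1.10-fold and 1.18-fold lower. With all 16 libraries the adjusted p was 1 and 0.22.

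Tfeb, a master regulator of lysosome biogenesis, measured 5.02, 5.14 and 5.07 log2 CPM with LPS in mice A, B and C of the WT and 4.96, 4.87 and 4.86 with LPS + Dex. In mice A, B and C of the KO it measured 5.02, 4.84 and 5.17 with LPS and 4.73, 4.58 and 4.88 with LPS + Dex. In the WT the lowest LPS library (5.02) was above the highest LPS + Dex library (4.96). The share of all genes with such groups was not counted. The change was -0.18 (SE 0.05, adjusted p = 0.0375) in the WT and -0.28 (SE 0.05, adjusted p = 0.00175) in the KO in the 12 libraries. With all 16 libraries the adjusted p was 1 and 0.958, and without the untreated library of WT mouse A it was 0.0835 and 0.00578.

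The other 4 factors passed with Dex in neither genotype. Cebpd was higher in 2 of 6 mice and lower in 4, with a change of 0.01 (SE 0.08, adjusted p = 0.99) in the WT and -0.10 (SE 0.08, adjusted p = 0.497) in the KO in the 12 libraries. Runx1 moved by -0.14 to 0.06, Mitf by -0.06 to 0.18 and Mef2c by -0.27 to 0.02 within mice. The difference in response between the C/EBP genes was not tested.

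**Figure D3:**
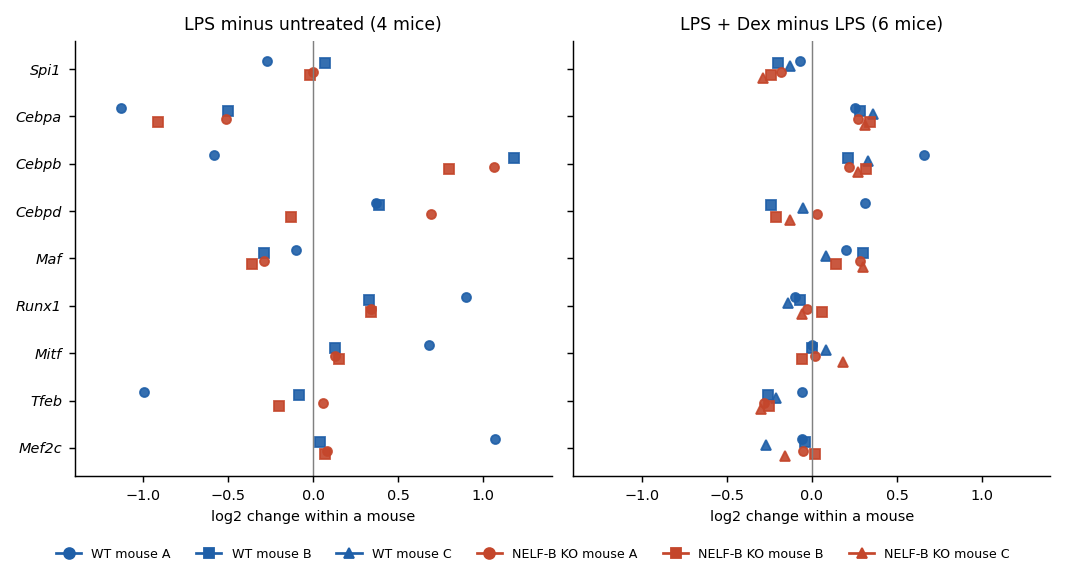
log2 change within each mouse for LPS minus untreated (left, 4 mice) and LPS + Dex minus LPS (right, 6 mice), on the same horizontal scale. On the right the points of Cebpa, Cebpb and Maf lie above 0 and those of Spi1 and Tfeb below 0 in 6 of 6 mice.

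Whether NELF-B loss alters the responses was tested as the difference between genotypes of the within-mouse change. For LPS, 0 of 9 genes passed (0.0% of all genes), and the differences (KO minus WT) ran from -0.49 (Mef2c) to 0.61 (Cebpb) with all libraries. Without the untreated library of WT mouse A they ran from -0.20 (Cebpa) to 0.06 (Tfeb), again with 0 of 9 past the test (0.187% of all genes). For Dex, 0 of 9 passed, with differences of -0.13 (Cebpb) to 0.09 (Runx1), and 0 of 9 in the 12 libraries (0.0104% of all genes). At an unadjusted p under 0.05 limma gave 0 of 9 for LPS (4.12% of all genes) and 0 of 9 for Dex (0.281%), and voom on recovered reads called 0 of 9 in each.

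The levels in NELF-B KO and WT were then compared within each treatment. In limma 0 of 9 genes passed in untreated, LPS or LPS + Dex BMDM (0.0% of all genes in each). At an unadjusted p under 0.05, Cebpd passed in untreated BMDM (1 of 9, against 0.385% of all genes) and 0 of 9 passed under LPS (8.44%) and under LPS + Dex (11.3%), and voom called 0 of 9 in each treatment. Cebpd measured 3.51 ± 0.68 log2 CPM in the untreated WT and 4.82 ± 0.15 in the untreated KO (SD, n = 2 each). It measured 4.45 ± 1.10 and 5.55 ± 0.83 with LPS, and 4.46 ± 0.96 and 5.45 ± 0.86 with LPS + Dex (SD, n = 3 each). The difference was 1.31 (SE 0.40, adjusted p = 0.889 in limma) in untreated cells. It was 1.10 (SE 0.60, adjusted p = 0.758) under LPS and 0.99 (SE 0.57, adjusted p = 0.587) under LPS + Dex. Without the untreated library of WT mouse A, the untreated difference was 0.83.

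In the single libraries, untreated Cebpd measured 3.03 and 3.99 log2 CPM in mice A and B of the WT and 4.71 and 4.93 in mice A and B of the KO, which do not overlap. With LPS it measured 3.40, 4.37 and 5.59 in mice A, B and C of the WT and 5.40, 4.80 and 6.44 in mice A, B and C of the KO. With LPS + Dex it measured 3.70, 4.13 and 5.54 in mice A, B and C of the WT and 5.43, 4.59 and 6.32 in mice A, B and C of the KO. The mice C were highest in each genotype, and the treated groups overlapped, while within each letter the KO mouse was above the WT mouse. The letters follow the printed library names, which share a string or form for mice B and for mice C and leave mice A as the remaining mice. Same-letter libraries of the genotypes deviated together from their group means (r over all genes 0.35 to 0.76 in the 8 pairs).

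Between mice of the same letter, KO was above WT for Cebpd in 8 of 8 pairs of libraries, by 0.43 to 2.00, and for Runx1 in 8 of 8, by 0.01 to 0.78, as it was for 7.72% of all genes. These pairs come from 3 mice per genotype and are not 8 replicates. For Cebpb, KO was above WT in 7 of 8, and the exception was the untreated pair of mice A, at -0.74. With the letter as a block, the Cebpb difference was 0.77 (SE 0.11, adjusted p = 0.0757) under LPS and 0.64 (SE 0.13, adjusted p = 0.0845) under LPS + Dex. The Cebpd difference was 1.10 (SE 0.29, adjusted p = 0.158) and 0.99 (SE 0.24, adjusted p = 0.0969), and that of Runx1 0.16 (SE 0.07, adjusted p = 0.313) and 0.25 (SE 0.06, adjusted p = 0.102). The block called 0 of the 9 in each treatment, beside 0.0312% of all genes in untreated cells, 0.125% under LPS and 0.614% under LPS + Dex, and Nelfb passed in each (adjusted p = 0.00322, 0.043 and 0.0328). Without the block Cebpb had a standard error of 0.38 under LPS (adjusted p = 0.689) and Runx1 of 0.12 (adjusted p = 0.851).

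The other 6 genes differed between the genotypes by -0.62 (Tfeb, untreated) to 0.57 (Mef2c, untreated). Without the untreated library of WT mouse A, which leaves WT mouse B alone, these values were -0.22 and 0.14. The untreated difference of Maf then turned from 0.30 to -0.20, and that of Cebpa moved from -0.02 to 0.43. In untreated cells Spi1, Cebpd and Runx1 (3 of 9) were higher and Tfeb (1 of 9) lower in the KO without overlap of the groups, as were 15.7% (higher) and 13.8% (lower) of all genes, 29.4% together, and under LPS or LPS + Dex no member's groups were separate (13.7% and 17.8% of all genes). S100a8, the only listed neutrophil marker in the table, was also higher in the KO of the same letter with LPS, at 13.9 to 36.2 CPM against 5.44 to 20.5. Its part in the Cebpb and Cebpd differences was not tested.

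**Figure D4:**
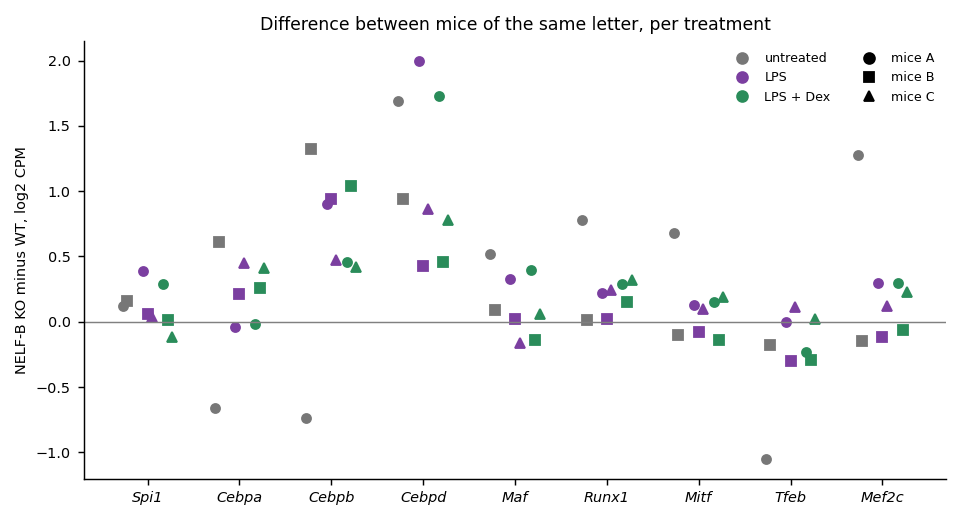
NELF-B KO minus WT in log2 CPM for mice of the same letter; colours are treatments and symbols are letters. All 8 points lie above 0 for Cebpd (0.43 to 2.00) and for Runx1, and the untreated points of mice A lie apart for several genes.

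The partners and relatives of these factors were described from lists chosen by name. The shares of all genes called, in either direction, were 13.8% in the WT and 7.32% in the KO for LPS in all 16 libraries, 2.19% and 2.57% for Dex in the same libraries, and 10.4% and 14.1% for Dex in the 12 LPS and LPS + Dex libraries. Among the MAF relatives, Maff, a small MAF protein without an activation domain, rose with LPS by 4.86 (SE 0.14, adjusted p = 1.03e-07) in the WT and 5.29 (SE 0.14, adjusted p = 5.34e-08) in the KO, where Maf itself fell or did not pass. Of the 4 MAF relatives in the table, 2 rose in each genotype and 1 fell in the WT. The medians were 0.36 and 0.45 beside 0.01 and -0.01 over all genes. The second that rose was Mafg, by 0.61 and 0.56. Of the 2 MiT/TFE relatives, Tfec rose with LPS by 1.33 (adjusted p = 0.000985) and 1.00 (adjusted p = 0.00553), while Tfe3 did not pass in all 16 libraries. Without the untreated library of WT mouse A, Tfe3 rose past the threshold in the KO but not in the WT. Of the 8 ETS relatives of PU.1, 2 rose in each genotype in all 16 libraries, Ets2 by 1.61 and 1.73 and Ets1 by 0.97 and 0.92. The LPS medians of the 8 were 0.54 and 0.16 (WT and KO), and 0.1 and 0.16 without the untreated library of WT mouse A. More of the 8 passed without that library, rising and falling. Of the 3 C/EBP relatives, Ddit3, a stress-induced C/EBP protein, fell in the WT (-1.38, adjusted p = 0.0352), and 0 of 3 passed in the KO. Its change was -2.36 in WT mouse A and -0.50 in WT mouse B. With the untreated library of WT mouse A left out, Ddit3 fell by 0.53 (adjusted p = 0.0407) in the WT and by 0.51 (adjusted p = 0.00598) in the KO. None of the 2 RUNX and 2 MEF2 relatives passed with LPS, although Mef2a and Mef2d rose in the KO without the untreated library of WT mouse A.

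With Dex, none of these relatives passed in either genotype with all libraries. In the 12 LPS and LPS + Dex libraries, 4 of the 8 ETS relatives fell in each genotype, and Spic, a PU.1-related factor of iron-recycling macrophages, fell most (-0.94 in the WT and -0.84 in the KO). Ets1 fell by 0.46 and 0.45. In the same libraries Tfe3 fell by 0.21 and 0.32 and Mef2d by 0.24 and 0.26, Cebpg rose by 0.22 and 0.31, Mafk rose by 0.26 and 0.40, and Maff fell by 0.32 and 0.29 (WT and KO). The ETS relatives had medians of -0.20 and -0.12, beside -0.01 and 0.00 over all genes (WT and KO).

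Of 15 other myeloid regulators in the table, 5 rose and 1 fell with LPS in the WT and 4 rose and 1 fell in the KO, with medians of 0.65 and 0.27 beside 0.01 and -0.01 over all genes. When the untreated library of WT mouse A was left out, the medians were 0.19 in the WT and 0.27 in the KO, beside 0.00 and -0.01 over all genes. Id1, an inhibitor of helix-loop-helix factors, fell by 2.91 (adjusted p = 0.000315) in the WT and by 2.13 (adjusted p = 0.00231) in the KO, and was also among the genes most like Cebpa. Trib1, a pseudokinase that promotes degradation of C/EBPα protein, rose by 1.29 (adjusted p = 0.00156) in the WT and 1.65 (adjusted p = 0.000329) in the KO. Id2 rose by 1.08 and 0.96. Nfil3 was the 1 gene of this list that passed with Dex in all 16 libraries, rising by 1.66 (adjusted p = 0.0112) in the WT and 1.62 (adjusted p = 0.00996) in the KO. In the 12 libraries, 2 rose and 7 fell in the WT and 2 rose and 8 fell in the KO. Bhlhe40 fell by 0.74 and 0.69 and Id1 rose by 0.80 and 0.69 there, and Trib1 fell by 0.53 and 0.45.

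The target lists showed how far genes that these factors are known to regulate moved in the same hour. Of 17 PU.1 targets, 1 rose with LPS in each genotype, Cd14 (the LPS co-receptor), by 1.47 in the WT and 1.65 in the KO, and 0 passed with Dex in all 16 libraries. Of 11 C/EBP targets in the table, 6 rose with LPS in each genotype, with medians of 1.54 and 1.83, and they are cytokine and acute-response genes that many LPS-activated factors share. Il6 rose by 7.85 (adjusted p = 5.92e-09) in the WT and 8.72 (adjusted p = 2.99e-09) in the KO, and Il1b, Csf3 and Ptgs2 by 6.89 to 8.53. With Dex, 4 of these 11 fell and 1 rose in each genotype. Il1b fell by 1.97 and 1.68, Ptgs2 by 2.00 and 1.66, Il6 by 0.92 and 1.08 and Il1rn by 0.92 and 1.02, while Lcn2, an acute-phase iron-binding protein, rose by 1.49 (adjusted p = 0.0444) and 1.51 (adjusted p = 0.0374). In the 12 libraries Saa3 (0.79 and 0.78) and Hp (0.56 and 0.73), further acute-phase genes, also rose with Dex. More of the 11 fell than rose there, with 3 higher and 6 lower in the WT (10.4% of all genes called). In the KO 3 were higher and 5 lower (14.1% of all genes called).

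Of 29 lysosomal targets of MITF and TFEB, only the autophagy receptor Sqstm1 passed in all 16 libraries. It rose with LPS by 0.72 (adjusted p = 0.00352) and 0.99 (adjusted p = 0.000558) and fell with Dex by 0.58 (adjusted p = 0.014) and 0.66 (adjusted p = 0.00713). The medians of this list were -0.03 and 0.01 with LPS and 0.00 and -0.03 with Dex, in the WT and the KO. Of the 6 MAF targets, Il10 rose with LPS by 4.12 (adjusted p = 0.00411) in the WT and 3.78 (adjusted p = 0.00724) in the KO, and 0 of 6 passed with Dex. In the 12 libraries Il10 rose with Dex by 1.01 and 1.05. In the comparisons of genotypes within a treatment, no gene of any list and no gene of the table passed in limma without the letter block. At an unadjusted p under 0.05, 37 genes passed in untreated cells, 811 under LPS and 1090 under LPS + Dex, and voom called 0, 1 and 3.

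Across the 16 libraries, the genes most like each factor by Pearson's r were also named. They describe libraries that share mice and treatments, so no p is given. Maf was closest to Cab39 (r = 0.976, 0.981 without the untreated library of WT mouse A), Pip4k2b and Fam49b. Runx1 was closest to Gab2 (0.969), Ankrd44 (0.967) and Fbxo11 (0.961), and these values were 0.921, 0.915 and 0.894 without that library. Mitf was closest to Pik3c2a (0.956, 0.89 without that library), Tab3 and Usp38. Mef2c was closest to Mpeg1 (0.95, 0.891 without that library), Zcchc11 and Nckap1l. Cebpa was closest to Zfp932 (0.915), Id1 (0.90) and Xrcc6bp1, Cebpb to Fas (0.907), Serpinh1 and S100a8 (0.885), and Cebpd to Cd48 (0.919), mt-Nd4l and Ankra2. Without that library the r was 0.878 for Zfp932, 0.861 for Id1, 0.909 for Fas, 0.902 for S100a8 and 0.895 for Cd48. Spi1 had no gene above 0.85 (Tmem259, then Fcer1g and H2afy). Tfeb was closest to Snx8 (0.942), Spsb2 (0.94) and Tspan4 (0.933), and these values were 0.785, 0.808 and 0.747 without the untreated library of WT mouse A.

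Among the 9 genes themselves, Runx1, Mitf and Mef2c were the closest group over the 16 libraries (r of 0.81 to 0.89 between pairs), and 0.55 to 0.71 remained without the untreated library of WT mouse A. Cebpb and Maf were opposed (-0.64, and -0.65 without it), with mice C high in Cebpb and low in Maf. Spi1 and Cebpd had an r of 0.73 and Cebpb and Cebpd of 0.63. Cebpa had r values of 0.19 with Cebpb and 0.01 with Cebpd, and 0.22 and 0.41 without the same library.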

How the data were processed

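RNA-seq of 16 BMDM libraries was used, grouped by treatment, genotype and mouse as the labels give them. The study's methods describe polyA libraries sequenced as paired reads, mapped to the mouse genome (mm10) in CLC Bio Genomic Workbench, with unique exon reads counted per gene. Scaling by the weighted trimmed mean (edgeR) gave the log2 CPM of 9614 genes that the authors deposited, and the filter that kept these genes is not given in the sources used here. CASAVA 1.8 and FastQC are also named in the submitters' processing notes. The 18 deposited columns of p-values and FDR hold the authors' own comparisons and were not used.

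Depth was recovered from the steps of the deposited values above their floor of -5.15 log2 CPM. Taken as reads, 100.0% of the values under 3 CPM were whole within 0.1 read in every library, and the totals cover counting error only. Differences were fitted to the log2 CPM of all genes in limma 3.58.1 (R 4.3.3, lmFit and eBayes with a mean-variance trend, two-sided) and adjusted by the Benjamini-Hochberg method over 9614 genes, with calls at 0.05. LPS, Dex and the genotype differences of these changes came from a single fit of the 16 libraries with a term per mouse. KO and WT were compared in the libraries of a treatment only. The mouse numbers pair the libraries as the labels give them. Within a mouse, deviations from the group means had an r over genes of 0.78 to 0.94 for LPS and LPS + Dex. For untreated and LPS the r was 0.19 to 0.82. Between different mice of a genotype it was -0.79 to 0.19 and -0.82 to 0.50 for these pairs of treatments. Deviations from a mean of 2 or 3 mice cancel out, which by itself draws r between different mice below 0. The untreated library of WT mouse A had an r of 0.19 with its own LPS library. With the LPS library of WT mouse C its r was 0.48, so for this library r does not bear out the pairing. Nothing else is known about the origin of the cultures. In the fit with mouse terms, p-values measure the spread of the changes within mice, pooled over all groups. Those of KO against WT within a treatment measure the spread between these mice. The fits were also run on simulated reads with known changes. None of the simulated libraries was made to stand apart, so that run does not show how the fits perform on these data.

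The members and gene lists were chosen with earlier results of these data known. The text names all 9 members, Nelfb, list genes past the threshold (up to 4 per list and comparison, by size of change) and the 3 genes most correlated with each member. Saa3, Hp and Il1rn with Dex and Mef2a were chosen after their values were seen. Results of some list genes are not reported here. Exon lengths and positions are from GENCODE vM21 (GRCm38), and promoter windows from RefSeq (GRCm38.p6), which matched 6 of the 9 members. Levels per kb used Python 3.11.15 with pandas 2.3.3. Alternatives were a fit without the mouse terms, mice A and B only, a letter block, mouse as a random effect, a filter on mean log2 CPM above 1, median centring, log2(CPM + 1), voom on recovered reads, a threshold of 0.1 and leaving out each library. The fit of 12 libraries, the effects over both genotypes and leaving out the untreated library of WT mouse A in every comparison were added after seeing the data.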

Additional observations from a re-analysis of the deposited data

How the results depend on the processing

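For LPS, with the replicate block, 2 of 9 genes passed in the WT and 2 in the KO. Without the replicate block 0 passed in each, and with mice A and B only 0 passed in each. At an adjusted p under 0.1, 5 passed in the WT. Leaving out a library gave 0 to 7 in the WT and 0 to 4 in the KO. Removing the untreated library of WT mouse A gave 4 in each genotype, and removing that of WT mouse B gave 7 in the WT, where 80.8% of all genes were called. For Dex, 0 genes passed in each genotype with all libraries, 5 in each in the 12 LPS and LPS + Dex libraries, and 0 to 4 in the WT and 0 to 5 in the KO when a library was left out. Over both genotypes, LPS called 3 genes (1 without the replicate block, 5 at 0.1) and Dex called 1 (0 without the replicate block, 5 in the 12 libraries and 5 without the untreated library of WT mouse A). The genotype difference of the LPS change had 0 calls and 0 to 8 when a library was left out, and the untreated genotype difference 0 and 0 to 6. Both upper values came from removing the untreated library of WT mouse B, which leaves WT mouse A alone, in fits that called 73.9% and 43.7% of all genes. The cause of these changes was not tested.

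Some signs turned, and in 2 cases with a value past the threshold, both Cebpb without the untreated library of WT mouse B (-0.45 with LPS in the WT and -0.77 between untreated genotypes). Without the replicate block Spi1 changed by 0.07 with LPS in the WT and Tfeb by 0.01 in the KO. With mice A and B only, Spi1 changed by -0.01 with LPS in the KO, and Runx1 by 0.02 and Mitf by -0.02 with Dex in the KO. Median centring gave -0.06 for Spi1 with LPS in the KO, and voom gave -0.02 for Cebpd with Dex in the WT. When a library was left out, LPS changes in the WT ran from -0.24 to 0.04 for Spi1 and from -0.45 to 1.09 for Cebpb. Those in the KO ran from -0.02 to 0.03 for Spi1, -0.18 to 0.76 for Cebpd and -0.19 to 0.06 for Tfeb. Dex changes ran from -0.15 to 0.14 for Cebpd and -0.03 to 0.11 for Mitf in the WT, and from -0.28 to 0.07 for Cebpd, -0.04 to 0.02 for Runx1 and -0.02 to 0.09 for Mitf in the KO. The untreated genotype difference of Cebpb ran from -0.77 to 1.35. Of 288 values of single genes under other settings, 263 kept direction and side of the threshold, as did 224 of 273 with a library left out. Each group holds 2 or 3 mice, and where a library left out leaves a group with 1 library, that library is assumed to vary like the other groups.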
